A study of Mus musculus with 30 samples.

Results

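The 10 genes described here encode proteins of natural killer (NK) cells and cytotoxic lymphocytes, and they were chosen by name, with earlier results of these data known. They are Prf1, Nkg7, Gzma, Gzmb, Klrb1c, Ncr1, Klrd1, Klrk1, Eomes and Tbx21, each taken from the entry of that exact symbol among the 23303 gene entries of the expression table. All 10 were found, and all 10 reached the minimum for testing, an average of 0.5 FPKM in blood. RNA was measured by sequencing of trunk blood from male C57BL/6J mice aged 2 to 3 months, with 4 HC, 5 FC and 5 Immo+FC libraries, each from a pool of 2 mice. HC mice were home-cage controls that were handled only. FC mice were first habituated to the test chambers, were conditioned to fear a tone paired with a foot shock and were killed 2 h later. Immo+FC mice were held immobile for 2 h in the week before and then went through the same conditioning and were killed at the same delay. No group had immobilization without conditioning, and none had the chamber or the tone without the shock. The library from a pool gives no value for a single mouse, and the blood holds all circulating cell types, so fewer cells of a type and less RNA per cell cannot be told apart in any value below. In blood counts, the paper reports that neutrophils made up more and lymphocytes less of Immo+FC blood than of FC or HC blood. It reports no such difference between HC and FC, and gives no separate count of NK cells or T cells.

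NK cells and cytotoxic T cells kill a target cell by releasing granules at the point of contact. Perforin opens the target's membrane and granzymes, a family of serine proteases, enter and start cell death. Whether an NK cell fires depends on the balance of activating and inhibitory receptors on its surface, and the T-box transcription factors EOMES and T-bet direct the maturation of these cells. Both cell types circulate in blood, and stress hormones and adrenergic signals are known to move lymphocytes between blood and tissues.

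Stretches of promoter sequence are shown for 3 genes, for 1 with a large difference between groups (Prf1) and for 2 that hold matches to both motifs searched (Gzmb and Ncr1). The stretches run from base −200 to base −10 relative to the start site of transcription, on the gene's own strand, as RefSeq gives it on GRCm38.p6. The Prf1 stretch is chr10:61297636-61297826 (plus strand), the Gzmb stretch is chr14:56262344-56262534 (minus strand) and the Ncr1 stretch is chr7:4337515-4337705 (plus strand). Capitals mark matches on either strand to 2 motifs. The core that Runx factors bind reads TGTGGT, and when it lies on the opposite strand it appears as ACCACA. A core that T-box factors bind reads TCACAC, and on the opposite strand it appears as GTGTGA.
Prf1: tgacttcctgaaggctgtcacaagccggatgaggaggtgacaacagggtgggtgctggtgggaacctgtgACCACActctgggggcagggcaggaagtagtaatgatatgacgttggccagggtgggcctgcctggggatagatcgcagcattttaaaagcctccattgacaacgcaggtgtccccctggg
Gzmb: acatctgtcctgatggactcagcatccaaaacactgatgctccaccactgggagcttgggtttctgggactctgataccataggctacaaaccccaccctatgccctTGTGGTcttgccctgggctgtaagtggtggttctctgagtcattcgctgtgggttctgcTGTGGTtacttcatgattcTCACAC
Ncr1: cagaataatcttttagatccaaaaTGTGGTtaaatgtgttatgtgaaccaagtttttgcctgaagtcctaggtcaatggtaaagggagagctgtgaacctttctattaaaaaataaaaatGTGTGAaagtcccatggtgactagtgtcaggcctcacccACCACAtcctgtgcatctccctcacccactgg
In the whole window, from 250 bases before to 50 bases after the start, the Runx core was present in 7 of the 9 genes of the group that have a window in the table, Prf1, Nkg7, Gzma, Gzmb, Klrb1c, Ncr1 and Klrk1, and in 18.9% of all 27025 genes. The T-box core was present in 3 of the 9, Nkg7, Gzmb and Ncr1, and in 16.4% of all genes. Neither core was in the windows of Eomes and Tbx21, and Klrd1 was not searched. The motifs were chosen after the values of the genes had been seen, and a match describes the letters only.

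All 10 genes were transcripts of blood. None of their 140 values in blood was at 0, while 96 of their 160 values in the 16 amygdala libraries of the series were listed at 0 and the highest amygdala value was 0.127 FPKM. FPKM is the number of sequenced fragments scaled to transcript length and to library depth, so levels can be set beside each other between genes. The granzyme gene Gzma was the highest of the 10 in blood, with a mean of 225 FPKM over the 14 libraries (place 406 of the 11656 genes tested). Nkg7, whose protein sits in the granule membrane, had a mean of 112 FPKM and Klrd1, which encodes the CD94 receptor chain, 58.3 FPKM. Gzmb at 20.7, Prf1 at 19.8, Ncr1 at 18.2, Klrb1c at 15.9 and Klrk1 at 10.1 FPKM were in the middle. The T-box factor genes were lowest, Tbx21 at 7.27 FPKM and Eomes at 4.31 FPKM. The NK cell receptor genes Ncr1 and Klrb1c were thus present in every library of blood.

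Some libraries stood apart in blood. Total sequences were 9081977 to 20101794 in HC, 19442415 to 24075999 in FC and 21059464 to 25892322 in Immo+FC, and HC library 4 was the one of 9081977. In HC library 3 the FPKM values summed to 1674854, against 664738 to 1002978 in the other 13 libraries. Immo+FC libraries 1 and 2 had the lowest levels of most of the 10 genes in their group and were among the 4 libraries with the highest mean level of 12 neutrophil markers. The results were therefore also computed without HC libraries 3 and 4, and without Immo+FC libraries 1 and 2, alternatives chosen after the data had been seen. The files give FPKM values and no read count per gene, so no counting interval is given for a gene.

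**Figure D1:**
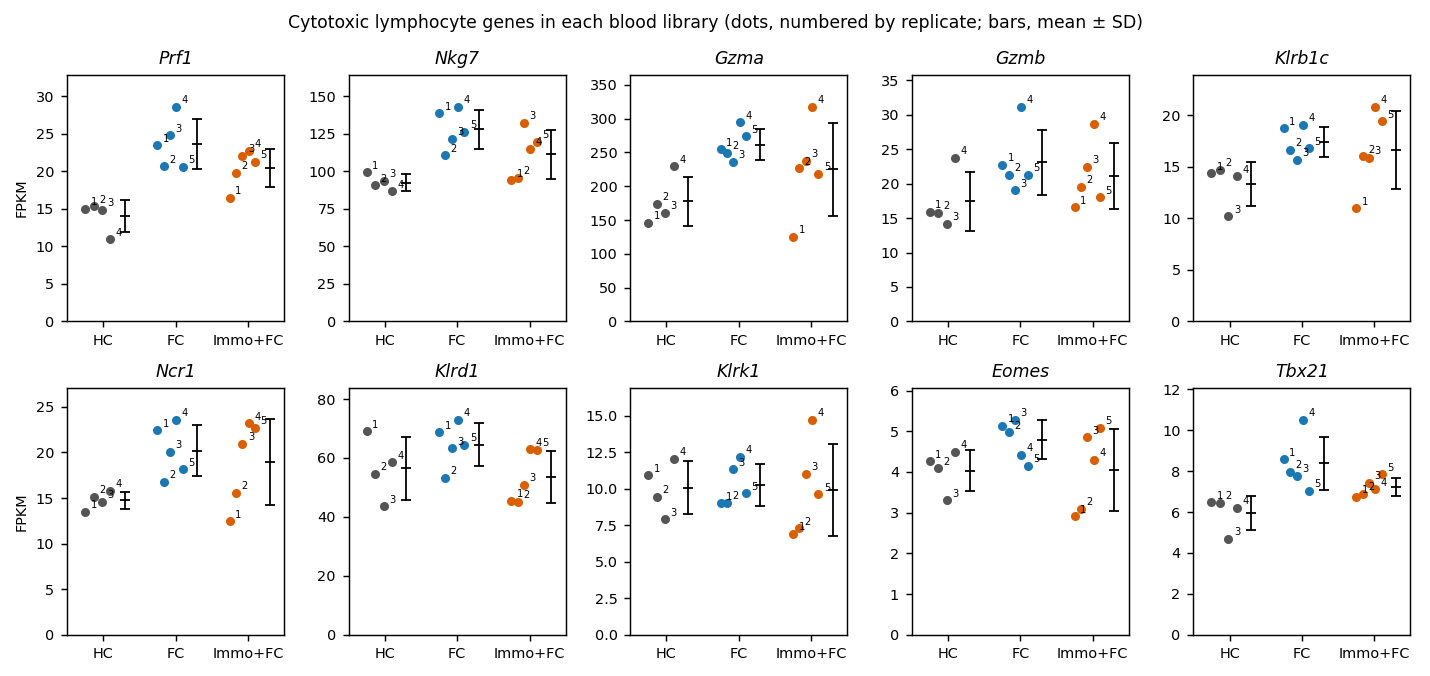
FPKM (vertical axis, linear, from 0) of each of the 10 genes in the 14 blood libraries, by group, with 1 dot per library numbered by replicate and bars for the mean ± SD. For Prf1 the 5 FC dots, from 20.6 to 28.6, all lie above the 4 HC dots, from 10.9 to 15.3, whereas for Klrk1 the groups overlap throughout.

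The comparison of FC with HC asked what differs in blood 2 h after fear conditioning, with its habituation to the chambers included. None of the 10 genes passed the adjusted threshold, while the fitted difference was above 0 for all 10, with a median log2 fold change of 0.43 against −0.01 for all genes tested. Among all 11656 genes 4 passed an adjusted p of 0.05, a share of 0.0343%, and all 4 were lower in FC. The paper, with a different test, reports more genes in this comparison, most of them lower in FC. Of the 10 genes, 7 had an unadjusted p under 0.05, all higher in FC, against 506 of all genes, or 4.34%. In 6 of the 10 every FC library was above every HC library, against 192 of all genes, or 1.65%. A difference above 0 was found for 47.7% of all genes. The 10 genes vary together from library to library and are not 10 separate observations. They were also chosen with earlier results of these data known, so the counts beside these shares are a description and not a test.

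Prf1, which encodes perforin, lies on chromosome 10 from 61297833 to 61304680 of GRCm38. It was at 15.0, 15.3, 14.8 and 10.9 FPKM in the 4 HC libraries, at 23.4, 20.7, 24.8, 28.6 and 20.6 FPKM in the 5 FC libraries and at 16.4, 19.8, 22.1, 22.8 and 21.3 FPKM in the 5 Immo+FC libraries. Every conditioned library, with or without immobilization, was above every HC library. Its FC mean of 23.6 ± 3.32 FPKM (SD, n = 5) was 1.68 times the HC mean of 14.04 ± 2.07 FPKM (SD, n = 4). The log2 fold change was 0.75 with a standard error of 0.13 and a 95% interval of 0.46 to 1.04. The limma p was 6.21e-05, the fifth smallest of all genes, and the adjusted p was 0.112. It passed without FC library 5 (0.0466), with no minimum level for testing (0.0312) and with libraries weighted by quality (0.0392), and over all settings the adjusted p was between 0.0312 and 0.361.

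Nkg7 (chromosome 7, 43437073 to 43438249) encodes a membrane protein of cytotoxic granules. It was at 99.4, 90.5, 93.5 and 86.6 FPKM in HC, at 139, 111, 122, 143 and 126 FPKM in FC, and the Immo+FC libraries were at 93.8, 95.7, 132, 115 and 120 FPKM. The lowest FC library was above the highest HC library, while Immo+FC libraries 1 and 2 lay among the HC libraries. The log2 fold change of FC over HC was 0.46 (standard error 0.12, adjusted p = 0.135).

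Gzma (chromosome 13, 113093825 to 113100981) and Gzmb (chromosome 14, 56258838 to 56262260) encode granzymes A and B, the granule proteases of these cells. Gzma was at 146, 174, 161 and 229.5 FPKM in HC, at 255, 249, 236, 295 and 274 FPKM in FC, and the Immo+FC libraries were at 125, 227, 237, 318 and 219 FPKM. FC and HC libraries did not overlap, although HC library 4, the shallow one, came close to FC library 3. The log2 fold change was 0.58 (standard error 0.21, adjusted p = 0.328). Gzmb was at 15.9, 15.8, 14.2 and 23.8 FPKM in HC, at 22.8, 21.3, 19.02, 31.1 and 21.3 FPKM in FC, and the Immo+FC libraries were at 16.5, 19.5, 22.5, 28.6 and 17.999 FPKM. Here HC library 4 was above 4 of the 5 FC libraries, so the groups overlapped. The log2 fold change of Gzmb was 0.41 (standard error 0.19, adjusted p = 0.463).

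The fitted differences of FC over HC for the 4 receptor genes ran from 0.03 to 0.44. Their intervals overlap, and the genes were not tested against each other. Klrb1c (chromosome 6, 128778485 to 128789215) encodes NK1.1, the surface marker of NK cells in this mouse strain. It was at 14.3, 14.7, 10.2 and 14.1 FPKM in HC, at 18.7, 16.6, 15.6, 19.04 and 16.8 FPKM in FC, and the Immo+FC libraries were at 10.98, 15.98, 15.9, 20.8 and 19.4 FPKM. Every FC library was above every HC library, with a log2 fold change of 0.39 (standard error 0.17, adjusted p = 0.432). Ncr1 (chromosome 7, 4337724 to 4345164) encodes the activating receptor NKp46, which T cells mostly lack. It was at 13.5, 15.1, 14.6 and 15.8 FPKM in HC, at 22.4, 16.8, 20.1, 23.6 and 18.2 FPKM in FC, and the Immo+FC libraries were at 12.5, 15.6, 20.97, 23.2 and 22.7 FPKM. Again FC and HC did not overlap, and Immo+FC library 1 was below all of both. The log2 fold change of FC over HC was 0.44 (standard error 0.17, adjusted p = 0.367).

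Klrd1 (chromosome 6, 129591782 to 129598775) encodes CD94, which pairs with NKG2 chains to read MHC class I on other cells. It was at 69.1, 54.6, 43.6 and 58.6 FPKM in HC, at 68.8, 53.2, 63.2, 72.9 and 64.4 FPKM in FC, and the Immo+FC libraries were at 45.5, 45.1, 50.9, 62.9 and 62.8 FPKM. The 3 groups overlapped, and the log2 fold change of FC over HC was 0.20 with a 95% interval of −0.11 to 0.52 (adjusted p = 0.68). Klrk1 (chromosome 6, 129610323 to 129623864) encodes NKG2D, an activating receptor for stress-induced ligands that CD8 T cells can also carry. It was at 10.9, 9.44, 7.89 and 12.04 FPKM in HC, at 8.996, 9.05, 11.3, 12.2 and 9.68 FPKM in FC, and the Immo+FC libraries were at 6.90, 7.30, 11.03, 14.7 and 9.63 FPKM. The group means of Klrk1 were 10.1, 10.2 and 9.91 FPKM in HC, FC and Immo+FC, and the log2 fold change of FC over HC was 0.03 with a 95% interval of −0.40 to 0.46. Its sign was not stable, and the value was as low as −0.08 when 1 library, HC library 3, was left out.

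Of the transcription factor genes, Tbx21 (chromosome 11, 97098071 to 97115331), which encodes T-bet, was at 6.48, 6.46, 4.71 and 6.20 FPKM in HC, at 8.59, 7.99, 7.78, 10.5 and 7.05 FPKM in FC, and the Immo+FC libraries were at 6.76, 6.91, 7.44, 7.12 and 7.86 FPKM. All conditioned libraries were above all HC libraries, and the Immo+FC libraries lay close together, with a coefficient of variation of 6.08%. The log2 fold change of FC over HC was 0.48 (standard error 0.13, adjusted p = 0.143). Eomes (chromosome 9, 118478212 to 118486132) was at 4.26, 4.09, 3.31 and 4.49 FPKM in HC, at 5.13, 4.98, 5.28, 4.42 and 4.15 FPKM in FC, and the Immo+FC libraries were at 2.91, 3.09, 4.85, 4.30 and 5.08 FPKM. Its groups overlapped, with a log2 fold change of 0.25 for FC over HC and a 95% interval of −0.12 to 0.61.

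The count of 7 genes with an unadjusted p under 0.05 was 4 without HC library 1 or FC library 4. It was 6 without both HC libraries 3 and 4, and the median log2 fold change was then 0.39. With 1 library left out the median ran from 0.35 (without HC library 3) to 0.47 (without FC library 2).

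**Figure D2:**
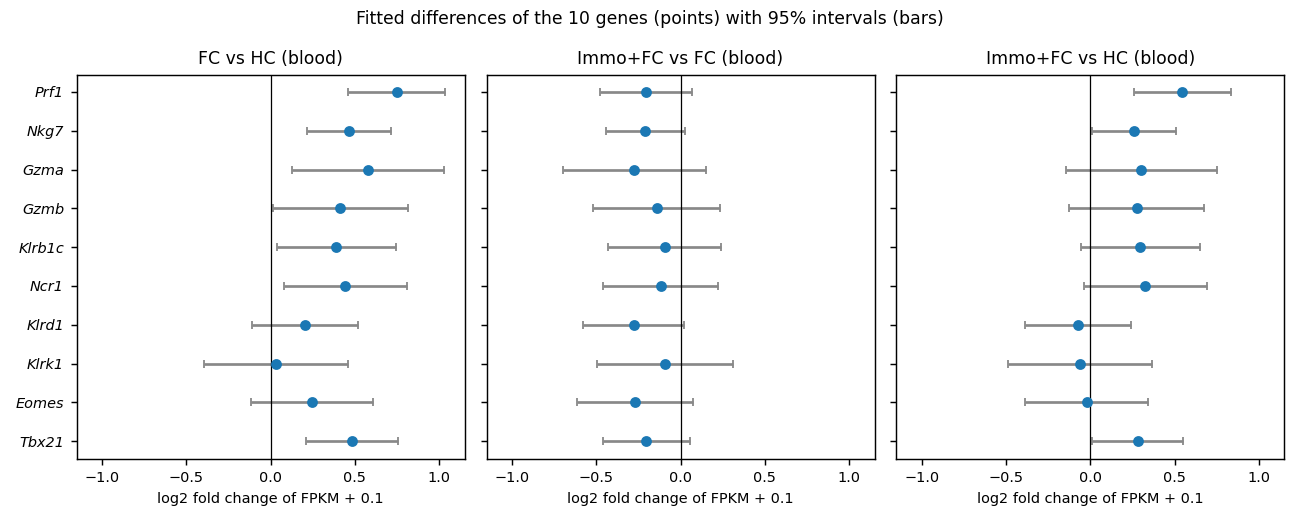
Fitted log2 fold change of FPKM + 0.1 (horizontal axis) for each of the 10 genes (rows) in the 3 comparisons of blood groups, with points for the fit and bars for its 95% interval. In FC against HC all 10 points lie right of 0, from 0.03 for Klrk1 to 0.75 for Prf1, and in Immo+FC against FC all 10 lie left of it with every interval spanning 0.

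The comparison of Immo+FC with FC asked whether earlier immobilization alters the state of blood after conditioning. All 10 genes had a fitted difference below 0, from −0.28 for Klrd1 to −0.09 for Klrk1, with a median of −0.20 against −0.01 for all genes. None of the 10 passed the adjusted threshold and none had an unadjusted p under 0.05. Over all genes the adjusted count by limma was 0 as well (0%). The paper, with a different test, reports genes past its own threshold in this comparison, most of them higher in Immo+FC. By the unadjusted limma p at the same limit 675 genes were higher and 437 (3.75%) lower, and 52.7% of genes lay below 0. The smallest p of the 10 were those of Klrd1 (0.0649) and Nkg7 (0.0775), and each of the 10 intervals spans 0, such as −0.48 to 0.07 for Prf1 and −0.70 to 0.15 for Gzma. The count of genes with an unadjusted p under 0.05 was 2 without FC library 2, Immo+FC library 4 or Immo+FC library 5 and 1 without HC library 3 or Immo+FC library 3.

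The lowest Immo+FC values were in libraries 1 and 2. Immo+FC library 1 was the lowest of its group for 9 of the 10 genes and library 2 for Klrd1. Immo+FC library 4 was the highest for 7. Without libraries 1 and 2 the median difference from FC was −0.02, and Klrb1c at 0.10, Ncr1 at 0.15 and Klrk1 at 0.19 were above 0. These libraries were picked after their low values had been seen, so a smaller difference follows in part from that choice. With FC library 4 left out the median was −0.13, and with Immo+FC library 4 left out it was −0.25. The coefficient of variation was larger in Immo+FC than in FC for 8 of the 10 genes, such as 30.4% against 8.73% for Gzma and 22.7% against 20.3% for Gzmb. It was smaller for Tbx21, 6.08% against 15.6%, and for Prf1, 12.2% against 14%. These spreads were not tested against each other.

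Immo+FC was also set beside HC, which differs from it in both procedures. This comparison uses the HC libraries of the first comparison and the Immo+FC libraries of the second, so the 3 sets of values are not independent. Of the 10 genes 7 were above 0, against 47% of all genes, with a median of 0.28 against −0.02. None passed the adjusted threshold, which 8 of all genes did (0.0686%). With an unadjusted p under 0.05, Prf1 (0.54, standard error 0.13, adjusted p = 0.0833), Nkg7 (0.26, adjusted p = 0.312) and Tbx21 (0.28, adjusted p = 0.308) were higher in Immo+FC, as were 7.14% of all genes. With libraries weighted by quality the adjusted p of Prf1 was 0.0445. Groups did not overlap for Prf1 and Tbx21, against 1.84% of all genes. Eomes at −0.02, Klrk1 at −0.06 and Klrd1 at −0.07 were slightly below 0, with 95% intervals that span 0. The number with an unadjusted p under 0.05 went from 3 to 6 when Immo+FC library 1 was left out, and to 1 when HC library 3, FC library 3 or any of Immo+FC libraries 3, 4 and 5 was. It was 6 with both Immo+FC libraries 1 and 2 left out and 1 with both HC libraries 3 and 4 left out. The median of 0.28 became 0.18 without HC library 3 and 0.40 without both Immo+FC libraries 1 and 2.

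For 8 of the 10 genes the group means stood in the order FC, Immo+FC, HC from high to low, and for Klrd1 and Klrk1 in the order FC, HC, Immo+FC. For none of them did the test tell FC and Immo+FC apart. FC library 4 was the highest of its group for 9 genes and HC library 3 the lowest of its group for 6.

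Other genes of the same pathway were taken as lists, and no gene of any list passed the adjusted threshold in any comparison. Among 26 tested further NK receptors and adaptors, 5 were higher and 1 was lower in FC than in HC at an unadjusted p under 0.05. The median of that list was 0.13. Of all genes 4.34% were higher and 5.87% lower at that p, and the counts of the other lists in FC against HC are to be read beside these shares. The most abundant of them were the signalling adaptors Tyrobp, Fcer1g and Hcst, which myeloid cells share. Tyrobp was at 1128 ± 607 FPKM in HC, 1034 ± 311 FPKM in FC and 1852 ± 830 FPKM in Immo+FC (SD, n = 4, 5 and 5). Hcst, which encodes the DAP10 adaptor of NKG2D, was at 166 ± 33.2, 163 ± 14.7 and 160 ± 12.97 FPKM, and Fcer1g was at 746 ± 346, 574 ± 117 and 823 ± 284 FPKM. The log2 fold changes of FC over HC were −0.05, −0.01 and −0.29 for Tyrobp, Hcst and Fcer1g. The Klr receptor genes of this list, named after their values were seen, were spread as well. Klrc2 gave −0.21, Klrb1b 0.04, Klra3 0.10, Klra7 0.12, Klri2 0.14, Klrb1a 0.25 and Klra9 0.28. Klrb1f gave 0.35, Klre1 0.47, Klrc1 0.66 and Klrg1 0.86.

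Of 10 tested further effector molecules, the chemokines and death ligands that these cells secrete or display, 2 were higher and 0 lower in FC at an unadjusted p under 0.05 (median 0.31). Ccl5, a chemokine that memory T cells and NK cells store, was at 336, 323, 357 and 422 FPKM in HC, at 455, 442, 442, 502 and 467 FPKM in FC, and the Immo+FC libraries were at 342, 387, 441, 462 and 367 FPKM. FC lay above HC throughout, with a log2 fold change of 0.37 (standard error 0.12, adjusted p = 0.253). Xcl1, which attracts dendritic cells, and Ccl3, an inflammatory chemokine that monocytes also make, gave 0.56 and −0.15.

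Of 12 genes for granule content and release, 3 were higher and 0 lower in FC (median 0.14). The abundant ones are shared with other leukocytes, and serglycin (Srgn) at −0.03, Lamp1 at −0.12 and Stx11 at −0.06 had differences close to 0. Cst7, an inhibitor of the proteases that activate granzymes, was named after its value was seen. It was at 15.1, 11.2, 11.3 and 14.1 FPKM in HC and at 21.3, 15.9, 21.9, 22.5 and 23.3 FPKM in FC, without overlap, with a log2 fold change of 0.70 (standard error 0.16, adjusted p = 0.121). Of 11 further transcription factors of these cells 2 were higher and 0 lower (median 0.16), with −0.04 for Klf2, 0.10 for Ets1 and 0.16 for Id2. Of 14 genes of maturation and trafficking 2 were higher and 1 lower (median 0.14), with −0.21 for the chemokine receptor Cxcr4 and 0.41 for S1pr1, whose product guides lymphocytes out of lymphoid organs.

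Against FC, Immo+FC had 3 higher and 0 lower of the 26 receptors and adaptors, 0 and 0 of the 10 effectors, 2 and 1 of the 12 granule genes, 0 and 1 of the 11 factors and 2 and 1 of the 14 trafficking genes at an unadjusted p under 0.05. Over all genes 5.79% were higher and 3.75% lower. The medians of these 5 lists were −0.05, −0.06, 0.04, −0.09 and −0.07. Against HC, the same lists had 4 and 0, 1 and 1, 4 and 0, 3 and 0, and 3 and 2 genes, beside 7.14% higher and 8.12% lower of all genes, with medians of 0.24, 0.25, 0.21, 0.19 and 0.07. The 10 genes had a higher median in FC against HC than any of these 5 lists. That difference between lists was not tested. The receptor and granule lists hold abundant genes that other leukocytes share. In FC against HC the Klr genes of the receptor list ran from −0.21 to 0.86.

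**Figure D3:**
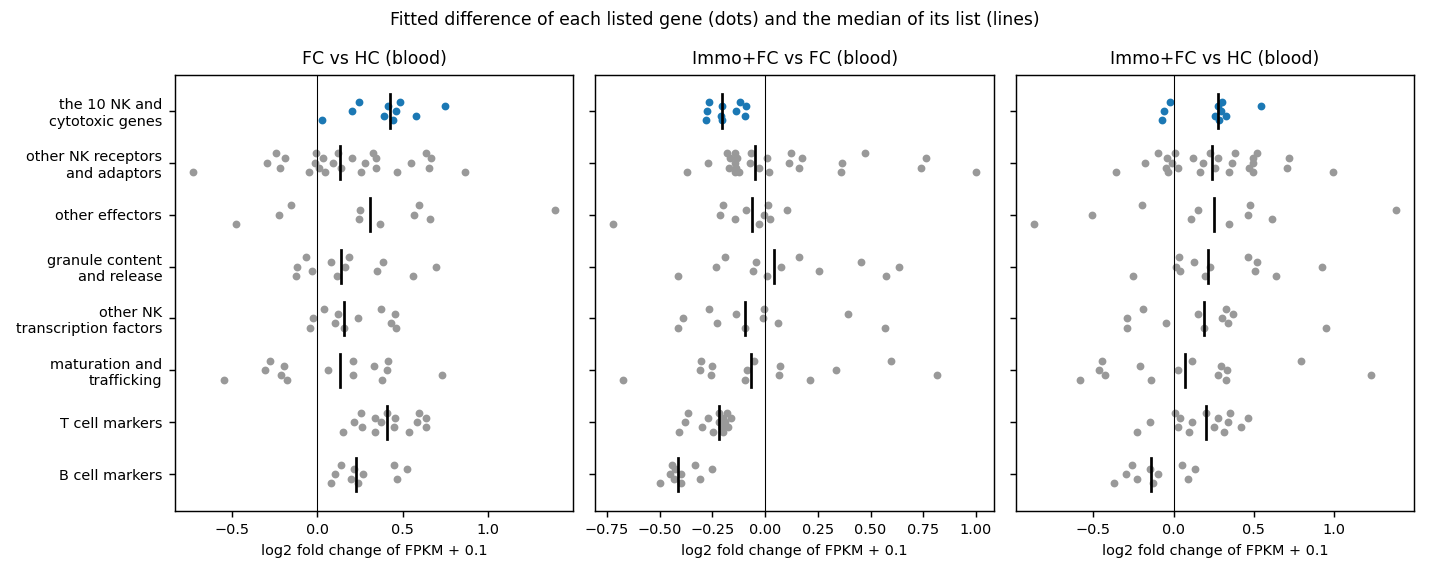
Fitted log2 fold change of FPKM + 0.1 (horizontal axis, each panel with its own range) for every tested gene of 8 lists (rows) in the 3 comparisons of blood groups, with 1 dot per gene and a line at the median of each list. In FC against HC the lines of the 10 genes, at 0.43, and of the T cell markers, at 0.41, lie furthest right.

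Markers of T cells also had higher values in FC than in HC. Of 15 T cell markers 15 were above 0 in FC against HC, with a median of 0.41, and 9 had an unadjusted p under 0.05, all higher. Among the abundant ones, the signalling scaffold Lat gave 0.34, the T cell receptor chain gene Cd3g 0.41 and the transcription factor gene Tcf7 0.64. Of 10 B cell markers 3 were higher and the median was 0.23, with 0.20 for Cd79b, 0.45 for Cd79a and 0.47 for Ms4a1. In Immo+FC against FC all 15 T cell markers and all 10 B cell markers were below 0, with medians of −0.22 and −0.41. At an unadjusted p under 0.05, 2 of the T cell and 5 of the B cell markers were lower, against 3.75% of all genes. Summed over its markers the T cell level was 674 to 930 FPKM in HC, 895 to 1220 FPKM in FC and 721 to 1170 FPKM in Immo+FC. The part of T cells in the differences of the 10 genes was not tested, but the distance between the lists can be given. Cytotoxic T cells can hold transcripts of both lists, so this distance does not separate T cells from NK cells. The mean log2 level of the 10 genes lay below that of the T cell markers by a difference of −0.81 ± 0.26 for HC, −0.83 ± 0.15 for FC and −0.77 ± 0.26 for Immo+FC (SD, n = 4, 5 and 5). These shifts between groups were smaller than the spread between libraries. Relative to B cell markers the difference was −2.58 ± 0.36 for HC, −2.45 ± 0.25 for FC and −2.24 ± 0.13 for Immo+FC. Relative to the further NK receptors and adaptors, the 10 genes stood higher by 0.97 ± 0.16 for HC, 1.20 ± 0.12 for FC and 0.93 ± 0.16 for Immo+FC, so here FC lay above both other groups by more than 1 SD. That list includes Tyrobp, Fcer1g and Hcst, adaptors that myeloid cells share, so this last distance is not one between NK genes alone. These distances were not tested.

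Markers of other cells are given as counts, sums and medians, and none passed the adjusted threshold. Of 11 monocyte markers 4 were lower and 0 higher in FC than in HC at an unadjusted p under 0.05, where 5.87% of all genes were lower, and their sum was 458 to 1264 FPKM in HC, 336 to 687 FPKM in FC and 467 to 1496 FPKM in Immo+FC. The 12 neutrophil markers summed to 4524 to 29856 FPKM in HC, 8523 to 21098 FPKM in FC and 12315 to 44604 FPKM in Immo+FC. In FC against HC 10 of them were above 0 and 1 was higher at an unadjusted p under 0.05. In Immo+FC against HC 9 were higher at that p, where 7.14% of all genes were. HC library 3 had the 29856 FPKM and Immo+FC library 2 the 44604 FPKM. The median log2 fold changes of the neutrophil markers were 0.63 in FC against HC, 0.83 in Immo+FC against FC and 1.47 in Immo+FC against HC. Those of the monocyte markers were −0.56, 0.59 and 0.03. Platelet markers (8 tested) had medians of −0.15, −0.07 and −0.32 in the 3 comparisons, and erythroid markers (4 tested) −0.08, −0.06 and −0.13. The erythroid markers summed to 400 to 3873 FPKM in HC, 524 to 1037 FPKM in FC and 555 to 1164 FPKM in Immo+FC. HC library 3 had the 3873 FPKM. Of 7 tested neuron markers 7 were lower in FC than in HC and 7 were lower in Immo+FC than in HC at an unadjusted p under 0.05. Of all genes 5.87% and 8.12% were lower in these 2 comparisons. The neuron markers summed to 12.1 to 48.2 FPKM in HC, 1.70 to 14.4 FPKM in FC and 0.863 to 14.1 FPKM in Immo+FC. Muscle markers (6 tested) had medians of −0.59, 0.13 and −0.12. The part of each of these in the values of the 10 genes was not tested.

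**Figure D4:**
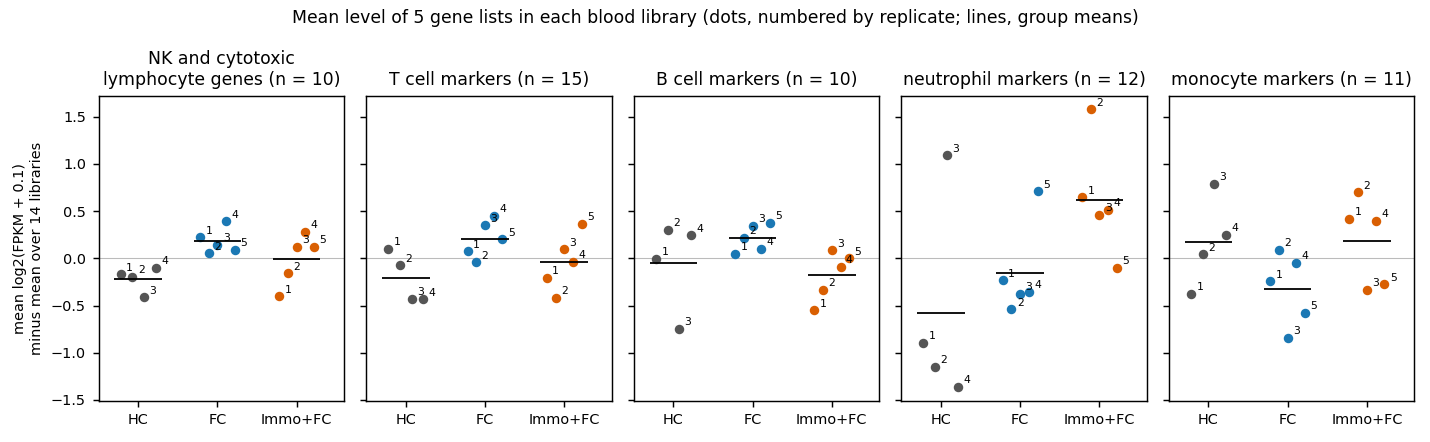
Mean log2(FPKM + 0.1) over the genes of 5 lists, minus its mean over the 14 blood libraries (vertical axis, shared by the panels), with 1 dot per library numbered by replicate and a line at each group mean. The NK and cytotoxic genes and the T cell markers have their highest group mean in FC, whereas HC library 3 (1.09) and Immo+FC library 2 (1.58) have the highest neutrophil levels.

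Within the 14 libraries the 10 genes followed each other to different degrees. The Pearson correlation of a gene with the mean of the other 9 was 0.909 for Ncr1, 0.883 for Klrb1c, 0.832 for Gzma, 0.823 for Nkg7, 0.779 for Tbx21, 0.776 for Gzmb, 0.702 for Prf1, 0.689 for Klrd1, 0.678 for Eomes and 0.606 for Klrk1. After the group means were removed it was 0.878 for Ncr1, 0.851 for Klrb1c and 0.844 for Klrk1, and 0.48 for Prf1. Klrk1 therefore followed the others from library to library inside the groups while its group means differed little, and Prf1, the gene with the largest difference between FC and HC, followed them least. These libraries share their depth and cell makeup across genes, so the values are a description.

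The 10 other genes whose levels were most like the mean of the group, among 10629 genes compared over the 14 libraries, were H2-Q7 (r = 0.898), Il2rb (0.883), Klrg1 (0.863), Serpinb6b (0.861), Rhobtb2 (0.848), Traf1 (0.841), Serpinb9 (0.84), AW112010 (0.83), Ccl5 (0.825) and Hdac1 (0.81). With group means removed their correlations were 0.663 to 0.825. The first correlation includes the differences between groups, so a gene chosen by it tends to share them, and the levels of such genes are a description. Il2rb, which encodes the receptor chain for IL-2 and IL-15, was at 26.4, 22.6, 23.4 and 23.9 FPKM in HC, at 37.0, 30.6, 37.2, 42.4 and 30.3 FPKM in FC, and the Immo+FC libraries were at 25.7, 28.0, 34.5, 33.2 and 37.0 FPKM. FC was above HC throughout, with a log2 fold change of 0.55 (standard error 0.13). Klrg1, an inhibitory receptor of mature effector lymphocytes, was at 3.68, 3.02, 3.30 and 7.002 FPKM in HC and at 10.2, 6.82, 7.34, 7.40 and 5.77 FPKM in FC. HC library 4 overlapped with FC, and the log2 fold change was 0.86 (standard error 0.27). As with Gzma and Gzmb, HC library 4 held the highest Klrg1 level of its group.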

How the data were processed

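RNA of globin-depleted trunk blood was sequenced by the authors from poly-A selected libraries in paired reads. Per the authors, STAR 2.3 placed the reads on mm10, and Cufflinks and Cuffdiff 2.1.1 gave the deposited FPKM values. Library depth comes from the count of total sequences that the authors deposited, with the percent of uniquely mapped reads, which was 60.06 to 72.59% in the 14 blood libraries. Read counts per gene are not used here. The FPKM table joins overlapping genes in 272 entries, and a symbol in such an entry was not matched.

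limma 3.58.1 (R 4.3.3) was run on log2(FPKM + 0.1), with moderated variances, a trend, 1 fit of the 3 groups and no covariates. The 11656 genes averaging 0.5 FPKM or more in blood entered, with Benjamini-Hochberg adjustment and a threshold of 0.05. A fold change on this scale understates that of low genes. The fit was also run on simulated data with independent noise for each gene and library. That run therefore does not cover genes that vary together from library to library. Libraries correlated at 0.9177 to 0.974 and 0 pairs were identical. Nothing says that pools of a group were kept or handled separately, so p-values measure the spread between these libraries. Which pools shared a lane is not stated in these sources.

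The 10 genes and the lists were chosen with earlier results of these data known. Genes named are the 10, the 3 of highest mean FPKM in each other lymphocyte list, any list gene past the threshold, and the 10 genes of highest correlation with the mean of the 10 (mean of at least 1 FPKM). Others are said to be named after their values were seen. A gene that this rule names is not reported here. Neuron, muscle, myeloid, platelet and erythroid lists are given as counts, sums and medians. Positions are from GENCODE vM21 on GRCm38, and promoter windows from RefSeq on GRCm38.p6. Alternatives were other pseudocounts and minimum values, median-ratio scaling, only the groups compared, library weights, a replicate block and leaving out libraries.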

Additional observations from a re-analysis of the deposited data

Results flagged for a closer look

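In 3 of the 30 groups of values examined (10 genes in 3 groups) 1 library lay far from the others by Dixon's test at its 95% critical value, where chance gives about 1 in 20. All 3 were the lowest library of HC. Prf1 was at 10.9 FPKM in HC library 4, and the next lowest HC library was at 14.8 FPKM. Klrb1c was at 10.2 FPKM in HC library 3, against 14.1 FPKM in the next, and Tbx21 was at 4.71 FPKM in the same library, against 6.20 FPKM in the next. HC library 4 is the one with the fewest sequences and HC library 3 the one with the highest summed FPKM, and the part of either in these values was not tested.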

How the results depend on the processing

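The count of the 10 genes past the adjusted threshold was 0 in all 3 comparisons and changed only for Prf1. It was 1 in FC against HC with no minimum value (adjusted p = 0.0312), with library weights (0.0392) and without FC library 5 (0.0466), so leaving out 1 library gave 0 to 1, and 1 in Immo+FC against HC with library weights (0.0445). The 4 genes of all genes in FC against HC were 195 with no minimum value, 11 with library weights, 2 with only the groups compared, 1 without HC libraries 3 and 4, and 1 to 19 when 1 library was left out (19 without FC library 5, 11 without HC library 2, 1 without HC library 4). The 8 genes in Immo+FC against HC were 102 with a pseudocount of 1, 3 with 0.01, 105 with no minimum value, 2 with only the groups compared, 361 with library weights, 1 without Immo+FC libraries 1 and 2, and 1 to 296 when 1 library was left out (296 without HC library 3, 27 without Immo+FC library 4, 1 without HC library 4). In Immo+FC against FC the count was 0 throughout.

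Of the 10 genes, those with an unadjusted p under 0.05 numbered 4 to 7 in FC against HC, 0 to 2 in Immo+FC against FC and 1 to 6 in Immo+FC against HC when 1 library was left out. In Immo+FC against FC the 0 became 1 with only the groups compared, with library weights and without HC libraries 3 and 4. In Immo+FC against HC the 3 became 5 with library weights, 1 without HC libraries 3 and 4 and 6 without Immo+FC libraries 1 and 2. The sign turned for small differences. Klrk1 in FC against HC was −0.0042 with library weights and −0.0797 to 0.121 when 1 library was left out. In Immo+FC against FC, Klrb1c, Ncr1 and Klrk1 were 0.10, 0.15 and 0.19 without libraries 1 and 2, and −0.183 to 0.0461, −0.200 to 0.0224 and −0.246 to 0.0235 with 1 library left out. In Immo+FC against HC, Klrd1, Klrk1 and Eomes were 0.0732, 0.219 and 0.234 without Immo+FC libraries 1 and 2, Eomes was 0.0061 with median-ratio scaling, and with 1 library left out they were −0.193 to 0.0286, −0.216 to 0.0539 and −0.113 to 0.0842. The cause of these changes was not tested beyond the libraries left out.

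The replicate numbers were not taken as pairs, and 2 of 13 pairs with the same number correlated above 0.1 in their deviations (−0.25 to 0.207). With so few libraries per group these correlations cannot show that no pairing exists. With a replicate block 2 genes passed in FC against HC and 8 in Immo+FC against HC, the block left the 10 genes at 0 in each, and 6 of the 10 had an unadjusted p under 0.05 in FC against HC. Depth limits the low genes most, and with values in FPKM its size cannot be given per gene.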
